A study of Rattus norvegicus with 6 samples.

Results

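The genes described here are 8 components of nuclear factor kappa B (NF-kB) signalling. They are the receptor Tnfrsf11a, the inhibitor Nfkbia, the atypical inhibitor family member Nfkbiz, and the subunits Rela, Rel, Relb, Nfkb1 and Nfkb2. They were taken by gene symbol, and all 8 were found among the 25629 genes of the deposited matrices. The genes were chosen by their values in the naloxone against saline contrast of these data. Their changes in that contrast are therefore a description. Where a fit over all genes placed one of them past its threshold this is stated as called, beside the share of all genes called, and it is no independent test of that gene.

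The tissue was the nucleus accumbens, a reward-related region of the ventral striatum, and its nuclei were profiled from adult Sprague-Dawley rats aged 90 to 120 days, with no genetic change named in the labels. Every rat had self-administered heroin: 7 days at 1 response per infusion (FR1), 4 days at 3 responses (FR3), a progressive ratio test on day 12, and the FR3 schedule once more for days 13 and 14. When self-administration ended, the rats of 3 libraries were given saline and those of the other 3 the opioid receptor antagonist naloxone, 1 h before death. The 6 libraries came from 12 rats (6 males, 6 females), each library mixing the sexes, and rats without heroin were not analysed here. The labels do not state the naloxone dose or how many rats of each sex went into a library.

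NF-kB transcription factors are dimers of Rel-family subunits that are held in the cytoplasm by inhibitor of kappa B proteins. Signals from receptors of the tumour necrosis factor and interleukin-1 families activate a kinase complex that marks the inhibitor for destruction, after which the dimer enters the nucleus. Nfkbia encodes the main such inhibitor and is itself an NF-kB target, so its transcript is widely read as a feedback gene, and it is also known as a gene induced by glucocorticoid hormone. Tnfrsf11a encodes RANK, the receptor for the ligand RANKL, best known from bone-resorbing osteoclasts and from dendritic cells. In brain, NF-kB signalling is studied mostly in microglia, astrocytes and vessel cells.

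The promoters of Nfkbia and Nfkbiz are shown because these genes had the largest differences between treatments in astrocyte-like nuclei among the members with an entry in the promoter table. Nfkb2 is shown beside them as a subunit gene whose promoter also holds the NF-kB motif. Each run is the 250 bases before the annotated start, 5′ to 3′ in the gene's direction, from RefSeq on build GRCr8, and capitals mark the NF-kB consensus motif found on either strand. The Nfkbia run lies at chr6:78597073-78597322 on the minus strand, the Nfkbiz run at chr11:58251471-58251720 on the plus strand, and the Nfkb2 run at chr1:255108124-255108373 on the plus strand.
Nfkbia promoter: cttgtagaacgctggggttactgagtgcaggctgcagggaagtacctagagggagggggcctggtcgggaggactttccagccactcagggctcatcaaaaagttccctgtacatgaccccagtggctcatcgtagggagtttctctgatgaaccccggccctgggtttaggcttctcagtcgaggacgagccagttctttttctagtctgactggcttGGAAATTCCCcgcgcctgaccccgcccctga
Nfkbiz promoter: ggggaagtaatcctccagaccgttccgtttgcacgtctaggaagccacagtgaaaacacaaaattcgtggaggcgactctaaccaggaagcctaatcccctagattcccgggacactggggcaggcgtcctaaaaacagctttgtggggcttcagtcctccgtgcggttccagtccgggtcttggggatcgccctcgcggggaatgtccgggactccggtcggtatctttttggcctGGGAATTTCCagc
Nfkb2 promoter: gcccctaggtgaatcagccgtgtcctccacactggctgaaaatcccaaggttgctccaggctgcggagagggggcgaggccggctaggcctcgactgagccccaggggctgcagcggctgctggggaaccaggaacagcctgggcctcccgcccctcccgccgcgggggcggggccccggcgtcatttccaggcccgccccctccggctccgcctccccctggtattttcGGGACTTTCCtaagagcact
The motif lay at bases -31 to -22 of the Nfkbia promoter, on the strand opposite to the gene. It lay at bases -13 to -4 of the Nfkbiz promoter and at bases -20 to -11 of the Nfkb2 promoter, both on the gene's own strand. The Rel promoter held 3 overlapping matches between bases -82 and -72, on both strands, and the promoters of Nfkb1 and Rela held none. Over 33469 promoters of the table, 3.54% held the motif. The hexamer AGAACA, the core of the glucocorticoid receptor's recognition sequence, was in none of the 6 promoters and in 17.5% of all promoters, searched on both strands. A looser form of the NF-kB motif, GGGNNNNNCC, was in 42.3% of all promoters. Entries for 6 of the 8 genes were matched, and Relb and Tnfrsf11a had none.

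The libraries held 64260 barcodes and between 55739350 and 76272798 unique molecular identifiers (UMIs, 1 per captured transcript). After filters, 58960 nuclei in 39 clusters were used, and libraries shared 19 to 45 barcodes in pairs. Of these clusters 25 were named from markers, 7 were mixed and 7 stayed unnamed. Mixed clusters held glial or vascular markers at an intermediate level, or markers of several lineages. The named clusters held 73.4% of saline and 73.4% of naloxone nuclei. The classes with at least 20 nuclei in every library numbered 13. All 10 astrocyte markers, all 9 oligodendrocyte markers, all 10 microglia markers and all 7 endothelial markers found in the files were highest in their own class. The neuron classes shared markers: 2 of 7 were highest in Drd1-like and 3 of 9 in other GABAergic-like nuclei. The median depth was 1626 UMIs per oligodendrocyte-like nucleus, 1266 per microglia-like nucleus, 2453 per astrocyte-like nucleus and 9217 per nucleus of the Drd1-like spiny neurons. Levels are given in CPM: the UMIs of a gene in all nuclei of a class and library, divided by all UMIs of that class and library and multiplied by 1000000.

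Tnfrsf11a had its highest levels in oligodendrocyte-like nuclei (259 ± 136 CPM, SD, n = 6 libraries) and microglia-like nuclei (240 ± 42.2). Endothelial-like nuclei followed at 61.3 ± 16.1 CPM and astrocyte-like nuclei at 20.3 ± 7.24, while the 7 neuron classes lay between 0.508 and 2.76. The leading pair changed places with treatment, with the saline libraries at 219 to 298 CPM in microglia-like against 135 to 152 CPM in oligodendrocyte-like nuclei, and the naloxone libraries at 193 to 276 against 316 to 471 CPM. After thinning to 1000 UMIs per nucleus, 11.4% to 13.2% of oligodendrocyte-like nuclei of the saline libraries held a Tnfrsf11a UMI, against 0% in Drd1-like nuclei of the same libraries. Without thinning these shares were 17.9% to 22.9% and 0.335% to 0.923%. The share in oligodendrocyte-like nuclei of the saline libraries thus lay above that in Drd1-like nuclei at equal depth. In naloxone replicates 4, 5 and 6 the thinned share in Drd1-like nuclei was 0%, 0.238% and 0.147%. Thinning left out 16.1% of oligodendrocyte-like and 0.0166% of Drd1-like nuclei.

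**Figure D1:**
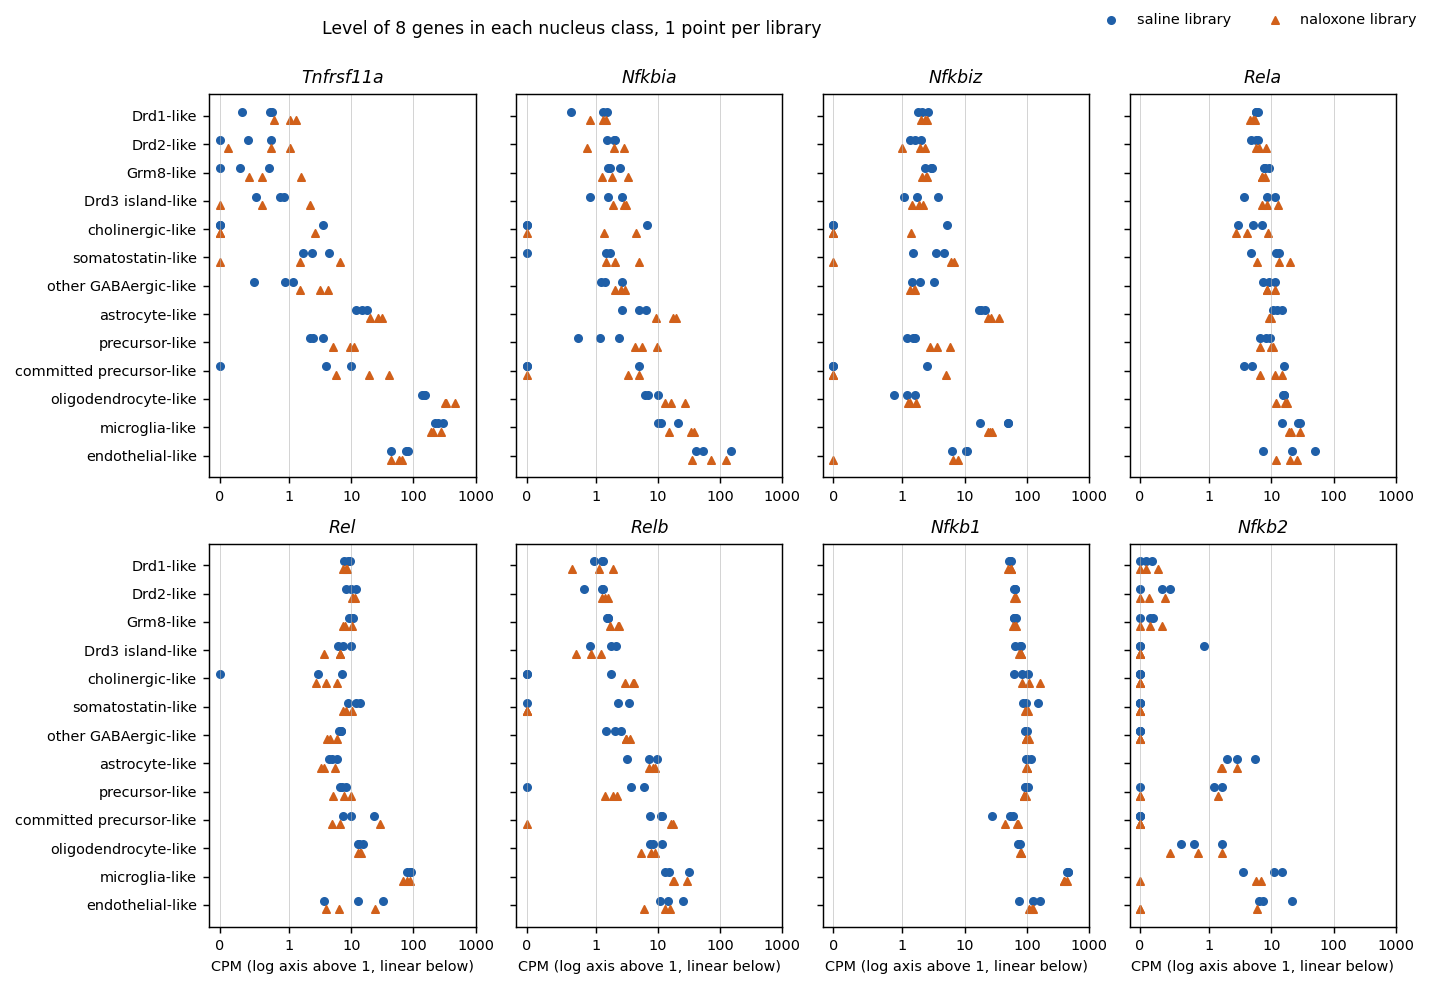
CPM of the 8 genes (horizontal axis, logarithmic above 1) in 13 nucleus classes, with 1 point per library, circles for saline and triangles for naloxone. Tnfrsf11a separates by treatment in oligodendrocyte-like nuclei, at 135 to 152 CPM in saline and 316 to 471 CPM in naloxone libraries, and Nfkb1 is highest in microglia-like nuclei.

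The genes around the receptor were unevenly spread over the classes. Tnfsf11, which encodes its ligand RANKL, gave 34 UMIs over all nuclei, with 1 in oligodendrocyte-like nuclei. Tnfrsf11b, which encodes the secreted decoy receptor osteoprotegerin that binds the same ligand, stood at 193 CPM in endothelial-like nuclei (47.6 to 245 over the 6 libraries) and at 12.5 in precursor-like nuclei. Traf6, the adaptor that RANK recruits, was highest in oligodendrocyte-like nuclei (60.3 CPM, 53.1 to 66.0) and microglia-like nuclei (57.7 CPM, 46.0 to 79.5). The Traf6 ranges of these classes overlapped. These 3 genes were chosen after their values were seen.

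Nfkbia was highest in endothelial-like nuclei, at 78.2 ± 46.0 CPM, on 82 UMIs in all. Microglia-like nuclei had 21.5 ± 11.8 CPM, oligodendrocyte-like nuclei 13.3 ± 7.83 and astrocyte-like nuclei 10.0 ± 6.86, and the neuron classes lay between 1.19 and 2.15. Nfkbiz, an atypical inhibitor family member that acts inside the nucleus, was highest in microglia-like nuclei (32.3 ± 13.8 CPM) and astrocyte-like nuclei (23.9 ± 6.81). It was far lower in oligodendrocyte-like nuclei, at 1.31 CPM. Nfkbia and Nfkbiz thus differed in class: oligodendrocyte-like nuclei held Nfkbia and little Nfkbiz.

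Nfkb1, which encodes the p105 precursor of the p50 subunit, was the member that passed the count filter in all 13 classes. It stood at 432 ± 32.1 CPM in microglia-like nuclei, and every other class lay between 53.8 and 119 CPM. Rel, which encodes the c-Rel subunit known from immune cells, stood at 82.5 ± 8.45 CPM in microglia-like nuclei and at 13.8 or less in the other 12 classes. Relb, a subunit of the non-canonical branch, was highest in microglia-like nuclei at 20.7 ± 7.80 CPM and stood at 0.955 to 2.60 in neuron classes. Rela, the p65 subunit of the classical dimer, showed the flattest distribution of the subunits, from 5.12 to 11.6 CPM in neuron classes and 23.0 ± 5.64 in microglia-like nuclei. Nfkb2, which encodes the p100 precursor of p52, gave 143 UMIs over all nuclei and passed the count filter in none of the 13 classes. Its highest level was 7.01 CPM in microglia-like nuclei, on 15 UMIs.

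Neighbouring classes in the order of levels were compared by flipping the signs of the 6 libraries' differences in an exact permutation test (two-sided), which cannot give a p below 0.03125. Of 96 neighbouring pairs, 12 had the same sign in all 6 libraries, and after Benjamini-Hochberg adjustment the smallest p was 0.25. No pair of neighbours thus passed 0.05, and the 12 had the smallest unadjusted p the exact test can give. The step from microglia-like to the next class was in the same direction in 6 of 6 libraries for Nfkb1 and Rel. The step from astrocyte-like to endothelial-like nuclei for Nfkbiz was also in 1 direction in all libraries.

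Microglia-like, endothelial-like, oligodendrocyte-like and astrocyte-like nuclei were each set against the mean of the 7 neuron classes, a comparison chosen after the levels were seen. Of 32 comparisons of log2(CPM + 1), 24 passed an adjusted p of 0.05 in the exact sign-flip permutation test, 23 with the non-neuronal class higher and 1 with it lower. Each of the 24 had the smallest p the test can give, 0.0417 after adjustment, and the same direction in 6 of 6 libraries. In microglia-like nuclei 7 of the 8 genes passed, among them Tnfrsf11a with a log2 difference of 6.96 ± 0.545 (SD, n = 6), Nfkbiz with 3.46 ± 0.489 and Rel with 3.35 ± 0.232. Nfkb2 was the exception there, higher in 5 of 6 libraries.

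Oligodendrocyte-like nuclei passed for 6 of the 8 genes, with differences of 6.92 ± 0.633 for Tnfrsf11a and 2.26 ± 0.609 for Nfkbia. Among the 6 was Nfkb2, near the floor at 0.977 CPM against 0.0848 CPM in neurons. Nfkb1 did not differ there beyond the spread between libraries, at -0.00 ± 0.069. Astrocyte-like nuclei passed for 7 genes in the higher direction, led by Tnfrsf11a (3.41 ± 0.359) and Nfkbiz (3.10 ± 0.472). Nfkb2 was also among the 7, at a low level of 2.69 CPM. Rel was lower than in neurons in 6 of 6 libraries, at -0.56 ± 0.236. Endothelial-like nuclei, with 413 nuclei in all, passed for Nfkbia (4.70 ± 0.928), Relb (2.56 ± 0.656) and Tnfrsf11a (4.99 ± 0.559).

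**Figure D2:**
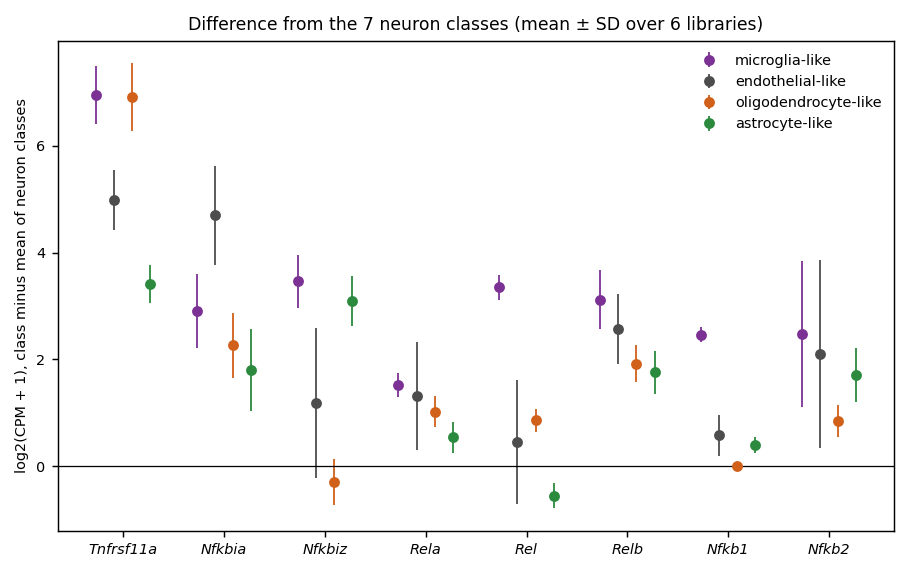
Difference in log2(CPM + 1) between 4 non-neuronal classes and the mean of the 7 neuron classes (vertical axis) for each gene, as mean ± SD over 6 libraries. Tnfrsf11a shows the widest separation, near 6.9 in microglia-like and oligodendrocyte-like nuclei, and Rel in astrocyte-like nuclei lies below 0.

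For the contrast of naloxone with saline, UMI sums per library were fitted across all genes of each class with edgeR's quasi-likelihood test, and a gene was called at an adjusted p under 0.05. Of the 104 combinations of 8 genes and 13 classes, 50 passed the count filter and 2 were called: Tnfrsf11a in oligodendrocyte-like and Nfkbia in astrocyte-like nuclei. In the same fits 0.834% of 11388 genes in oligodendrocyte-like nuclei and 0.881% of 11012 genes in astrocyte-like nuclei were called. The share called was 0.335% in precursor-like, 0.0806% in microglia-like, 0.787% in Drd2-like, 0.266% in other GABAergic-like, 0.206% in Drd1-like, 0.0562% in Grm8-like and 0.014% in somatostatin-like nuclei. It was 0% in Drd3 island-like, cholinergic-like, committed precursor-like and endothelial-like nuclei. Of the 50, 7 were higher and 3 lower in naloxone libraries without overlap between groups. In the classes of these 10, the share of all genes without overlap was 5.73% to 8.84% higher and 10.2% to 11.3% lower. Since this contrast chose the genes, nothing is read from the members' count. With the genes that passed the filter, 6 in oligodendrocyte-like and 7 in astrocyte-like nuclei, the median log2 change was 0.04 and 0.37, beside 0.00 over all genes tested in each class.

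Tnfrsf11a stood at 146, 152 and 135 CPM in oligodendrocyte-like nuclei of saline replicates 1, 2 and 3. In naloxone replicates 4, 5 and 6 it stood at 316, 471 and 333 CPM. The groups did not overlap, and the lowest naloxone library was above the highest saline library; in this class 8.84% of genes tested were higher without overlap. The fitted log2 change was 1.35 ± 0.13 (SE), a 2.56-fold higher level, on 5383 UMIs. The share of nuclei with a Tnfrsf11a UMI after thinning was 12.6%, 13.2% and 11.4% in the saline libraries and 25.5%, 36.4% and 24.6% in the naloxone libraries.

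In microglia-like nuclei, the other class with a high level, the same gene stood at 298, 219 and 251 CPM in saline and 276, 193 and 202 CPM in naloxone libraries. These groups overlapped, and the log2 change was -0.19 ± 0.18. The level in endothelial-like nuclei also overlapped between groups, with a log2 change of -0.18 ± 0.41. Whether the change differed between the classes was not tested.

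Other glial classes had low levels of the receptor with groups that did not overlap. Astrocyte-like nuclei had 11.7, 17.7 and 15 CPM in saline and 26.8, 30.8 and 19.9 CPM in naloxone libraries. The log2 change of 0.79 ± 0.23 was not called, and 6.43% of genes tested in this class were higher without overlap. Precursor-like nuclei had 3.58, 2.40 and 2.22 CPM against 11.3, 9.53 and 5.08 CPM, on 42 UMIs, and Tnfrsf11a did not pass the filter there. The share of all genes without overlap is not given for precursor-like nuclei, so nothing is read from the lack of overlap. The summed level of 9 oligodendrocyte markers in astrocyte-like nuclei was 412 to 546 CPM in saline and 439 to 706 CPM in naloxone libraries, and in precursor-like nuclei 248 to 476 and 346 to 622 CPM. The part of these markers' RNA in the Tnfrsf11a values of those classes was not tested.

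**Figure D3:**
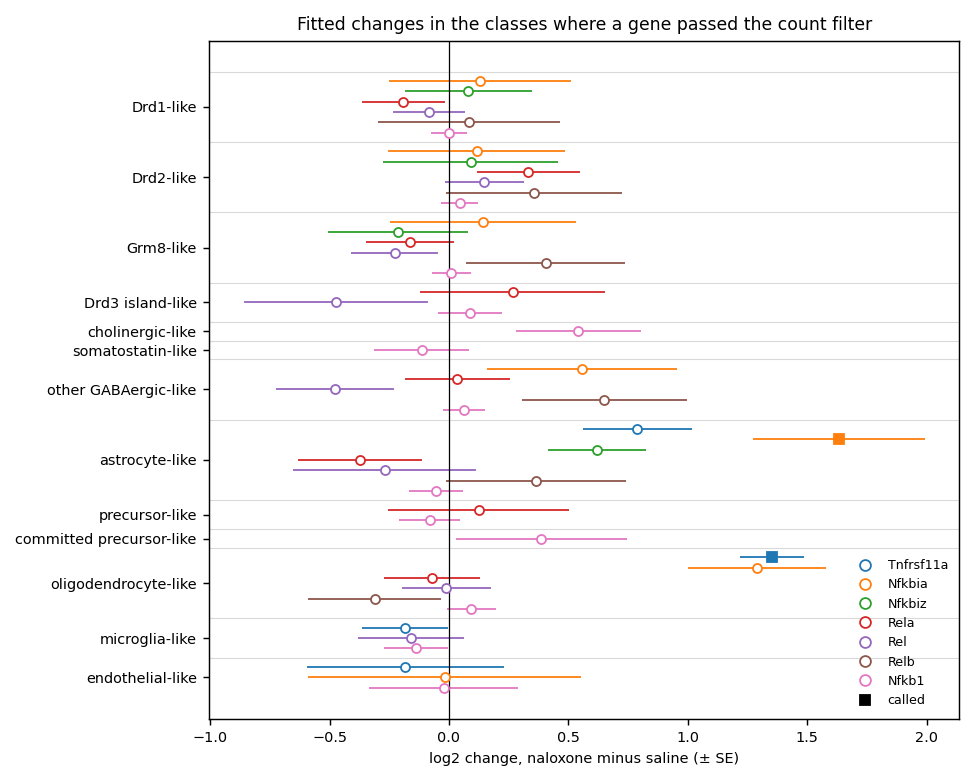
Fitted log2 change, naloxone minus saline, with its SE (horizontal axis) for the 50 combinations of gene and class that passed the count filter. Filled squares mark the 2 called combinations, at 1.35 for Tnfrsf11a in oligodendrocyte-like nuclei and 1.63 for Nfkbia in astrocyte-like nuclei.

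The oligodendrocyte-like class was made of 4 clusters, numbered 9 to 12, and the 8 genes had no part in forming them. Cluster 11 held 2296 nuclei, 92.7% of them from naloxone libraries. It took 2.21%, 2.29% and 3.76% of the oligodendrocyte-like nuclei of saline replicates 1, 2 and 3, and 29.1%, 51.7% and 33.4% of those of naloxone replicates 4, 5 and 6. Its leading genes by fold were Gpd1, Hapln2, Aspa, Gpatch4, Mog and others with Tnfrsf11a among the first 10, which include oligodendrocyte markers. The shares describe where nuclei fell and were not tested as a change in cell numbers.

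Tnfrsf11a stood at 456, 518 and 512 CPM in cluster 11 of the naloxone libraries and at 223, 104 and 189 CPM in its few saline nuclei. Without cluster 11 the class stood at 144, 154 and 133 CPM in saline and 258, 409 and 246 CPM in naloxone libraries, a ratio of 2.11 between the means. The groups did not overlap in any of the 4 clusters. This is a description of a gene that the contrast chose, and the share of all genes without overlap was not computed per cluster. In the largest, cluster 10 with 4952 nuclei, the Tnfrsf11a values were 127, 146 and 111 CPM against 267, 412 and 205 CPM.

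**Figure D4:**
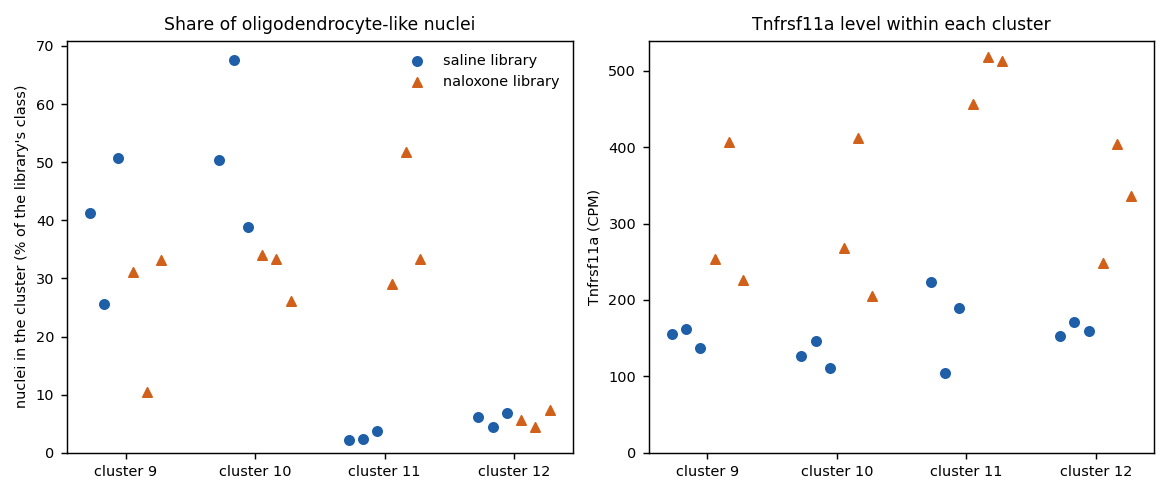
Left, share of each library's oligodendrocyte-like nuclei in clusters 9 to 12 (percent); right, Tnfrsf11a level in each cluster (CPM), with circles for saline and triangles for naloxone libraries. Cluster 11 takes 2.21% to 3.76% of saline and 29.1% to 51.7% of naloxone nuclei, and Tnfrsf11a is higher in the naloxone libraries in each cluster.

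Each library pools both sexes, so its nuclei were split by sex, read from Xist and Y-linked UMIs. A sex was read in 38.3% of oligodendrocyte-like and 59.6% of astrocyte-like nuclei. Oligodendrocyte-like nuclei of naloxone replicate 4 had a median of 1938.5 UMIs if female, 1881 if male and 1507 without a read sex. The naloxone libraries differed in which sex was high. In oligodendrocyte-like nuclei of naloxone replicate 4, Tnfrsf11a stood at 415 CPM in female nuclei (95% exact Poisson interval 379 to 454) and at 171 CPM in male nuclei (147 to 197). Naloxone replicate 6 was the other way round, with 156 CPM in female nuclei (123 to 194) and 471 CPM in male nuclei (435 to 509). Naloxone replicate 5 was high in both, at 416 CPM in female and 533 CPM in male nuclei.

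The female nuclei of the saline libraries stood at 126, 143 and 129 CPM and the male nuclei at 169, 181 and 146 CPM. Of the 6 naloxone values by library and sex, 4 lay between 415 and 533 CPM. The other 2 lay between the lowest and highest of the 6 saline values. Against saline nuclei of the same sex, the female value of naloxone replicate 6 (156 CPM) lay above all 3. The male value of naloxone replicate 4 (171 CPM) lay among them. Intervals cover counting error only. Nuclei without a read sex lay between, at 332 CPM in naloxone replicate 4, 457 CPM in replicate 5 and 280 CPM in replicate 6. The library values of naloxone replicates 4 and 6 thus average nuclei of unlike levels. The number of rats behind each of these values is not given in the labels.

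The same division appeared in cluster 11. It held 49.6% of the female (95% exact Clopper-Pearson interval 45.4% to 53.9%) and 5.61% of the male (3.81% to 7.91%) oligodendrocyte-like nuclei of naloxone replicate 4. In naloxone replicate 6 it held 3.07% of the female (1.00% to 7.01%) and 56.3% of the male nuclei (51.5% to 61.1%). Both sexes were high in naloxone replicate 5, at 52.6% and 59.1%. Female nuclei of saline replicates 1, 2 and 3 had 0% (0 of 172 nuclei, with an upper bound of 2.12%), 1.03% and 0.162%. Male nuclei of these libraries had 3.65%, 5.49% and 9.47%, above the female share in each saline library. This difference between the sexes was not tested.

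Fkbp5, a textbook glucocorticoid-induced gene, was read in the same nuclei, and it was chosen after its values were seen. In oligodendrocyte-like nuclei it stood at 179 CPM in female and 44.8 CPM in male nuclei of naloxone replicate 4, and at 41.4 and 165 CPM in replicate 6. The saline libraries had 18.6, 34.2 and 25.4 CPM in female and 64.4, 49.1 and 63.3 CPM in male nuclei. In astrocyte-like nuclei, which come from other clusters, Fkbp5 stood at 117 and 19.9 CPM in replicate 4 and at 16.5 and 145 CPM in replicate 6. Saline values there were 6.98 to 17.8 CPM in female and 21.8 to 45.1 CPM in male nuclei. In both classes the sex with less Fkbp5 in replicates 4 and 6 was thus the sex with less Tnfrsf11a in oligodendrocyte-like nuclei. Tnfrsf11a itself showed no such division in astrocyte-like nuclei. It stood there at 30.9 CPM in female and 30.7 CPM in male nuclei of replicate 4, and at 21.2 and 22.0 CPM in replicate 6. The cause was not tested, and the labels name no difference in treatment within a library.

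Nfkbia in astrocyte-like nuclei stood at 2.61, 6.45 and 5.0 CPM in saline replicates 1, 2 and 3 and at 17.5, 19.3 and 9.34 CPM in naloxone replicates 4, 5 and 6. The groups did not overlap; 6.43% of genes tested in this class were higher without overlap. The log2 change was 1.63 ± 0.36, on 123 UMIs over 4590 nuclei. The call was lost in 5 of the 6 fits that left a library out (all but naloxone replicate 6), where the log2 change ran from 1.41 to 1.93, and with nuclei gated one by one (1.48). With sums by sex the gene did not pass the count filter, and DESeq2 gave it no adjusted p. The share of nuclei with an Nfkbia UMI was 0.716%, 1.30% and 1.71% in saline and 4.66%, 3.82% and 3.28% in naloxone libraries.

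By sex, Nfkbia stood at 29.6 CPM in female and 9.04 CPM in male astrocyte-like nuclei of naloxone replicate 4, on 23 and 5 UMIs. It stood at 2.36 CPM in female and 13.0 CPM in male nuclei of replicate 6, on 2 and 13 UMIs. The female value of replicate 6 lay within the saline range of 0 to 8.72 CPM, and the male value of replicate 4 lay just above it. The summed level of 10 microglia markers in astrocyte-like nuclei was 63.3 to 76.4 CPM in saline and 77.6 to 89.8 CPM in naloxone libraries, with 1 of the 10 markers higher without overlap and none at 0. Its part in the Nfkbia values was not tested.

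**Figure D5:**
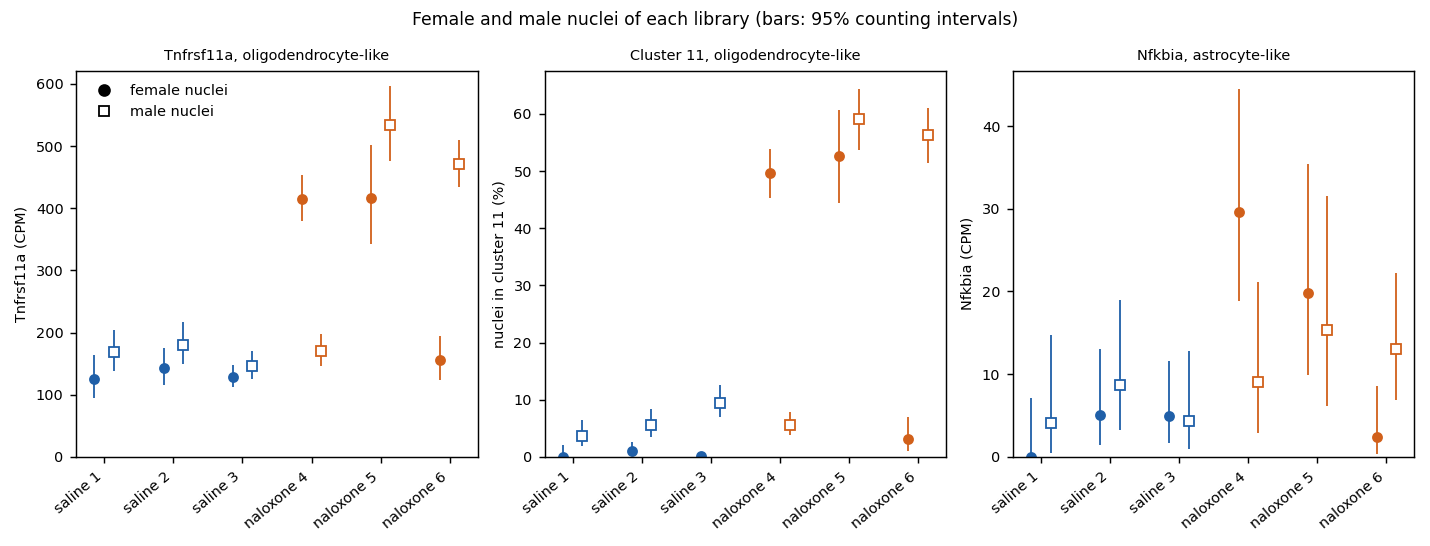
Female (filled circles) and male (open squares) nuclei of each library, blue for saline and orange for naloxone, with 95% counting intervals: Tnfrsf11a CPM and the percent of nuclei in cluster 11 in oligodendrocyte-like nuclei, and Nfkbia CPM in astrocyte-like nuclei. The male nuclei of naloxone replicate 4 (171 CPM) and the female nuclei of naloxone replicate 6 (156 CPM) lie at the level of the saline libraries in the Tnfrsf11a panel.

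Oligodendrocyte-like nuclei had 9.98, 7.04 and 6.09 CPM of Nfkbia in saline and 16.3, 27.3 and 13.0 CPM in naloxone libraries, again without overlap. The log2 change of 1.29 ± 0.29, on 269 UMIs, was not called in the edgeR fit of all libraries with the filter on low counts. It was called by DESeq2, and by edgeR without that filter or without naloxone replicate 6. Without cluster 11 the groups overlapped, at 10.2, 7.22 and 5.89 CPM against 12.3, 19.7 and 9.05 CPM. Precursor-like nuclei had 1.19, 2.40 and 0.739 CPM against 5.64, 9.53 and 4.35 CPM, on 29 UMIs and outside the fit. In endothelial-like nuclei, where the level was highest, the libraries ranged from 35.7 to 147 CPM and the log2 change was -0.02 ± 0.57.

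Nfkbiz in astrocyte-like nuclei stood at 18.3, 21.4 and 17.3 CPM in saline and 23.7, 35.8 and 26.8 CPM in naloxone libraries. The groups did not overlap, and the log2 change of 0.62 ± 0.20 was not called. In microglia-like nuclei it ranged from 17.6 to 49.7 CPM in saline and from 24.0 to 27.0 CPM in naloxone libraries, on 64 UMIs.

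The subunits had no call in any class. Nfkb1 stood at 462, 442 and 460 CPM in saline and 387, 397 and 444 CPM in naloxone libraries in microglia-like nuclei, with a log2 change of -0.14 ± 0.13 and groups that overlapped. In the spiny neuron classes its log2 changes lay between 0.00 and 0.05, each with an SE of 0.08, for Drd1-like, Drd2-like and Grm8-like nuclei. In oligodendrocyte-like nuclei the change was 0.09 ± 0.10.

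Rela was lower without overlap in 2 classes. In astrocyte-like nuclei it stood at 10.4, 12.5 and 14.5 CPM in saline and 9.29, 9.91 and 9.34 CPM in naloxone libraries (log2 change -0.37 ± 0.26; 11.3% of genes tested were lower without overlap). In Drd1-like nuclei it stood at 6.16, 5.59 and 5.64 CPM against 4.56, 5.56 and 5.02 CPM (log2 change -0.19 ± 0.17; 10.2%).

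Rel was lower without overlap in the other GABAergic-like interneurons, at 6.94, 6.33 and 6.85 CPM in saline and 4.04, 5.92 and 4.52 CPM in naloxone libraries (log2 change -0.48 ± 0.25; 10.8%). In that class Relb was higher without overlap, at 2.02, 1.46 and 2.60 CPM against 3.03, 3.50 and 3.01 CPM (0.65 ± 0.35; 5.73%). Relb was also higher without overlap in Grm8-like neurons (0.40 ± 0.33; 7.57%). None of these was called. Over all nuclei, where fewer nuclei of a class and less RNA per nucleus cannot be told apart, Tnfrsf11a stood at 13.6 to 17.6 CPM in saline and 24.5 to 34.6 CPM in naloxone libraries. Nfkbia was also higher without overlap over all nuclei (log2 change 0.79 ± 0.18; 11.5% of genes tested) and Rel lower (-0.23 ± 0.09; 10.1%). None of the 8 genes was called there, in a fit that called 0.0519% of 17348 genes.

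The other genes of the pathway were counted in 4 lists without the members. Of 45 combinations of gene and class for ligands and receptors, 235 for adaptors and kinases, 188 for other inhibitors and feedback regulators and 76 for target genes, edgeR called none in either direction, and DESeq2 called none. The unadjusted p was under 0.05 in 7, 20, 10 and 14 of these combinations, and without the filter on low counts edgeR called 1, 2, 1 and 4. The share of all genes with an unadjusted p under 0.05 is not given beside these counts, so nothing is read from them. In oligodendrocyte-like nuclei the median log2 change was 0.10, -0.02, -0.04 and 0.13 for the 4 lists, and in astrocyte-like nuclei it was 0.27, 0.06, -0.10 and -0.23. The lists include Tnfaip3, a deubiquitinase held by both the target and the inhibitor list, the adhesion gene Icam1 as a target, Ikbkb and Chuk as the kinases of the inhibitor, and Myd88 and Traf6 as adaptors.

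The last list held 20 genes known to respond to glucocorticoids, 19 of them in the files. Of 91 combinations of gene and class, 22 rose and 0 fell at an adjusted p under 0.05 in edgeR's test, in a list drawn up with earlier results of these data known. In oligodendrocyte-like nuclei 10 of 11 genes tested rose, with a list median of 1.33 on the log2 scale, and in astrocyte-like nuclei 6 of 12, with a median of 0.93. Fkbp5, which encodes a co-chaperone of the glucocorticoid receptor, rose in microglia-like nuclei from 130 to 145 CPM in saline to 528 to 920 CPM in naloxone libraries (log2 change 2.31 ± 0.21). It rose by 2.84 ± 0.39 in astrocyte-like, 2.06 ± 0.30 in precursor-like and 1.97 ± 0.29 in oligodendrocyte-like nuclei. In oligodendrocyte-like nuclei Cdkn1a, a cell cycle inhibitor, rose by 2.79 ± 0.30, the stress gene Ddit4 by 1.79 ± 0.21 and the kinase gene Sgk1 by 1.61 ± 0.18.

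Female and male nuclei were compared within libraries, a contrast that did not choose the genes. In 26 combinations of gene and class, over 9 classes, edgeR's quasi-likelihood test with library as a block called none of the members, and DESeq2 called none. The unadjusted p was under 0.05 in 0 of them and the smallest adjusted p was 0.717, while 0.133% of genes in oligodendrocyte-like and 0.188% in astrocyte-like nuclei were called. In the other 7 classes the share was 0.0739% (Drd1-like), 0.0764% (Drd2-like), 0.0788% (Grm8-like), 0.0985% (Drd3 island-like), 0.134% (somatostatin-like), 0.0903% (other GABAergic-like) and 0.159% (precursor-like). The log2 differences, female minus male, ran from -0.43 to 0.41. Over all nuclei, where 0.0798% of genes were called, none of the 8 was called either. Nfkb2 there stood at 0.376 ± 0.118 CPM in female and 0.229 ± 0.0815 CPM in male nuclei (log2 difference 0.67 ± 0.28), higher in female nuclei in 6 of 6 libraries, with an unadjusted p of 0.0371 and an adjusted p of 0.988 in edgeR's test. The lowest was Nfkbiz in astrocyte-like nuclei, at 21.1 ± 6.79 CPM in female and 27.8 ± 5.84 CPM in male nuclei, lower in female nuclei in 6 of 6 libraries. For Tnfrsf11a in oligodendrocyte-like nuclei the difference was -0.23 ± 0.23, with SDs of 144 CPM in female and 175 CPM in male nuclei that take in the division within naloxone replicates 4 and 6.

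Genes with the most similar distribution over the 13 classes were found by Pearson's r of mean log2(CPM + 1), among 14079 genes, as a description in which all points share the same 6 libraries. Tnfrsf11a was most like Cd82 (r = 0.983), Rasgrp3 (0.976) and Zfp729b (0.970). Nfkb1 was most like Grk2 (0.975), Dbnl (0.951) and Stau1 (0.945), all highest in microglia-like nuclei. Nfkbia was most like Ndufb7 (0.971), Rack1 (0.969) and Ubtf (0.964), all highest in endothelial-like nuclei.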

How the data were processed

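Nuclei of 6 libraries, 3 saline and 3 naloxone, grouped by the treatment in the labels, were measured with 10x 3' single-nucleus RNA sequencing. The deposited values are raw counts of UMIs per gene and barcode, made by the authors with Cell Ranger 9.0.1 on build mRatBN7.2, per the submitters' processing notes. Whether intron reads were counted is not given in the sources used here. The labels speak of 44592 nuclei, and the authors' own selection was not used here.

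The filter kept 61609 nuclei, those with 500 or more genes and no more than 5% mitochondrial UMIs. The nuclei with the highest Scrublet doublet scores in each library, at 0.4% per 1000 nuclei, were removed (2649, 4.3%). Nuclei were clustered with scanpy 1.11.5 on 3000 variable genes, 40 principal components and Leiden resolution 1, without the 8 genes, the pathway lists or sex-linked genes. Clusters were named from marker lists, and the score limit of 0.8 for neurons was set after seeing the data; it left 2 clusters with 4907 nuclei unnamed. Counts were summed per library and class and fitted with edgeR 4.0.16 (TMM, default filter on low counts) in R 4.3.3, with Benjamini-Hochberg adjustment over all genes of a class. Sex was read from at least 2 Xist UMIs or at least 1 UMI of 4 Y-linked genes, and 35.5% of nuclei were left without a sex. A sex was read in 38.3% of oligodendrocyte-like and 59.6% of astrocyte-like nuclei, against 85.9% of Drd1-like nuclei. The promoter table is on another build than the counts, so its coordinates were used for sequences only.

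The genes, lists and tests were chosen with earlier results of these data known. Per-library values are given for a gene that was called, or whose groups did not overlap at a mean of at least 5 CPM. Per-library values outside that rule (Relb and Nfkb1, Tnfrsf11a in microglia-like, and Nfkbia in precursor-like nuclei) were added after the values were seen. Of each pathway list up to 4 called genes with the largest changes are named, and the 3 most alike genes for likeness. Because nothing says how rats were divided over libraries beyond pooled sexes, p-values measure the spread between libraries. In a simulation, checked per class, some genes were given a log2 change of 1. The fit recovered 65.3% of them in astrocyte-like nuclei (10822 genes tested, 14 false calls) and 70.2% in oligodendrocyte-like nuclei (11185 genes, 10 false calls). In microglia-like nuclei it recovered 42.2% (5739 genes, 2 false calls). The counts were drawn from the fit's own model, with spreads estimated from these data. A division by sex within libraries was not simulated, so recovery under it is not known. The alternatives were DESeq2 1.42.0, leaving out each library, other size factors, keeping genes of low counts, other nucleus filters, doublets kept, gated nuclei, another clustering resolution and sums by sex. The last was fitted with sex and treatment on 12 sums, counting the female and male sums of a library as separate samples, so its errors are too small.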

Additional observations from a re-analysis of the deposited data

Results flagged for a closer look

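Nuclei outside the named classes gave values above every saline library for 3 combinations. In the 7 mixed clusters (6590 nuclei), Tnfrsf11a had a mean of 41.44 CPM in the naloxone libraries against 26.77 CPM in the saline libraries. In the same clusters Nfkbia had a mean of 6.384 CPM against 2.968 CPM. In an unnamed cluster led by Smoc2 and Veph1 (472 nuclei), Nfkbiz had a mean of 36.31 CPM in the naloxone libraries against 5.588 CPM in the saline libraries, on 15 UMIs in all. Other values lay below every saline library. Rel did so in the mixed clusters, at 9.80 to 10.6 CPM against 13.3 to 14.2 CPM. In the unnamed clusters (9083 nuclei) Rel stood at 5.65 to 6.93 CPM against 7.62 to 8.49 CPM. Nfkb2 in the mixed clusters stood at 0.220 to 0.520 CPM against 0.580 to 0.615 CPM, on 29 UMIs. The share of all genes without overlap in these nuclei was not computed. None of these differences was tested.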

How the results depend on the processing

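No paired analysis was possible because the saline libraries are numbered 1 to 3 and the naloxone libraries 4 to 6, so the groups share no replicate number. The log2 changes of Tnfrsf11a in oligodendrocyte-like nuclei were 1.19 to 1.46 with a library left out (1.19 without naloxone replicate 5), and the gene was called in every setting run, which is no independent support because this contrast chose it. The number of members' combinations called, 2 in the fit reported, was 4 with no filter on low counts, 1 with gated nuclei, 1 with sums by sex (12 sums from 6 libraries counted as separate samples) and 1 to 3 with a library left out. With no filter the lists gave 1 call (ligands and receptors), 2 (adaptors and kinases), 1 (other inhibitors) and 4 (target genes), and with sums by sex adaptors and kinases gave 1; with a library left out these 4 lists gave 0. The glucocorticoid-responsive list gave 15 to 25 calls with a library left out, against 22. Neighbouring classes with the same sign in all libraries numbered 6 after thinning and 6 with at least 1000 genes per nucleus, against 12, and 14 to 17 with a library left out. The comparisons with neurons in which the non-neuronal class was higher in every library used numbered 23 to 24 with a library left out. They numbered 21 after thinning, against 23 as reported. These are counts of direction only. With a library left out, the exact sign-flip test has too few libraries for any comparison to pass the adjusted p threshold. No setting gave a call between female and male nuclei, 0 with each library left out. DESeq2 gave no adjusted p for Nfkbia in astrocyte-like nuclei. No value could be had for endothelial-like nuclei with at least 1000 genes, for gated Drd3 island-like and committed precursor-like nuclei, or by sex in cholinergic-like, committed precursor-like, microglia-like and endothelial-like nuclei, which had under 20 nuclei in a library. Sparse counts limit the rest: Nfkb2 and most neuron values rest on few UMIs.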
